A study of Mus musculus with 8 samples.

Results

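NFE2L2 (also called NRF2) and 9 genes that control it or act with it were measured in gastrocnemius, a fast calf muscle, of aged mice with and without NOX4 in skeletal muscle. The 10 genes were chosen by name for their roles, with earlier results of these data known. They comprise the activators *Nfe2l2* and *Nfe2l1*, the repressors *Bach1* and *Bach2*, the ubiquitin ligase genes *Keap1* and *Cul3*, the small MAF genes *Mafg*, *Mafk* and *Maff*, and *Sqstm1*, which encodes the cargo receptor p62. Each name matched 1 row of the deposited table of 32390 rows, and all 10 rows were among the 12725 with enough counts to be tested. Bulk poly(A) RNA was sequenced from 4 *Nox4* fl/fl control mice, which carry the floxed alleles but no Cre, and from 4 *Mck*-Cre;*Nox4* fl/fl mice, called NOX4-deficient here. All were males on a C57BL/6 background fed standard chow, and the labels give an age of 21 months and 1 batch for all 8 samples. Cre was driven by the muscle creatine kinase promoter, which is active mainly in skeletal muscle and less so in heart, so that cells other than muscle fibers within the tissue keep the floxed gene intact.

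NFE2L2 and NFE2L1 are cap'n'collar (CNC) transcription factors. Each pairs with a small MAF protein, and the pairs bind antioxidant response elements to activate genes of glutathione synthesis, peroxide removal, NADPH supply and, for NFE2L1, the proteasome. BACH1 and BACH2 pair with the same small MAF proteins on the same elements and repress, and heme releases BACH1 from DNA. In unstressed cells KEAP1 holds NFE2L2 for ubiquitination by CUL3, electrophiles and peroxides modify KEAP1 and spare NFE2L2, and SQSTM1 can draw KEAP1 into autophagosomes. Most of this control acts on protein, which mRNA levels do not measure.

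Libraries held from 16350548 to 19804661 counts in control mice and from 16628305 to 19216987 in NOX4-deficient mice. Levels are given as CPM (counts scaled to a common library size) scaled by edgeR's TMM factors, with the SD over 4 mice. Changes are log2 fold changes of NOX4-deficient over control muscle from edgeR's quasi-likelihood test, and p-values were adjusted over all 12725 rows by the Benjamini-Hochberg method. Calls needed both an adjusted p-value under 0.05 and a log2 fold change of over 0.5 in size. *Nox4* itself, the deleted gene, was measured at 5.09, 2.47, 1.87 and 3.64 CPM in control replicates 1 to 4 and at 1.75, 2.18, 2.21 and 2.17 CPM in NOX4-deficient replicates 1 to 4. Its groups overlapped and it was not called (log2 fold change -0.65 ± 0.29, SE; edgeR adjusted p = 0.207). As muscle fiber markers, the 9 genes listed for the tissue summed to between 130800 and 159700 CPM in every library, led by *Myh4* and *Acta1*, the fast myosin and skeletal actin. In bulk tissue, fewer cells of a type and less RNA per cell cannot be told apart.

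Promoter sequence is shown first, and its relation to the changes given below was not tested. Windows that start 250 bases before and end 50 bases after each RefSeq start site were searched on both strands for TGACNNNGC, the core of the antioxidant response element. All 10 genes had at least 1 window, 16 in all. The core lay in 4 of the 16 windows, beside 12.4% of all 32851 mouse windows of that length. These 4 belong to *Nfe2l2*, *Mafg*, *Mafk* and *Maff*, and none of the other 6 genes had a match. The stretches around each match follow, in the direction of the gene, with the matched core in capitals. For *Mafk* and *Mafg* the match is on the strand opposite the gene, so that the capitals show its reverse complement.
Nfe2l2: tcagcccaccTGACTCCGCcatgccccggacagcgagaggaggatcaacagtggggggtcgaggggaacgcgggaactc
Maff: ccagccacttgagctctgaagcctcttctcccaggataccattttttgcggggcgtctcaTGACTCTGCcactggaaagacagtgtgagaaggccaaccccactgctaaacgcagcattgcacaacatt
Mafg: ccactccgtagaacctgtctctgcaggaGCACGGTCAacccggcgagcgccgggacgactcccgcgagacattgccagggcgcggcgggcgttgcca
Mafk: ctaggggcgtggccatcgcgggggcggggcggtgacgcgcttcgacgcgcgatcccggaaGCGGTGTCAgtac

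In GRCm38.p6, the build of the RefSeq tables, these are chr2:75704835-75704913 (minus strand) for *Nfe2l2*, chr15:79346449-79346577 (plus strand) for *Maff*, chr11:120633701-120633797 (minus strand) for *Mafg* and chr5:139791463-139791535 (plus strand) for *Mafk*. Counted from the start site, the cores begin at -240, -112, -222 and -13, in the same order of genes. *Maff* has 3 start sites in the table, and the core is in the window of 1 of them. An E-box, CACGTG, was found in 3 of the 16 windows, those of *Mafg*, *Mafk* and *Maff*, beside 7.15% of all windows. The AP-1 site TGAGTCA was found in none of the 16, beside 5.20% of all windows. These are matches of letters, and no binding was measured.

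Of the 10 genes, 7 were called lower in NOX4-deficient muscle and none higher. Over all rows tested the same rule called 6.16% in either direction, 3.48% lower and 2.68% higher. Both repressors, all 3 small MAF genes, *Nfe2l2* and *Sqstm1* fell, by log2 fold changes from -1.29 to -0.62, while *Nfe2l1*, *Keap1* and *Cul3* were not called. The median over the 10 genes was -0.67, against 0.01 over all rows tested. In each of the 7 genes every NOX4-deficient mouse lay below every control mouse, which holds for 8.97% of all rows tested, while the reverse holds for 7.2%. The same 7 were called by R's DESeq2, by pydeseq2 and with any 1 library left out. No set test was made, since the genes were chosen with results of these data known.

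**Figure D1:**
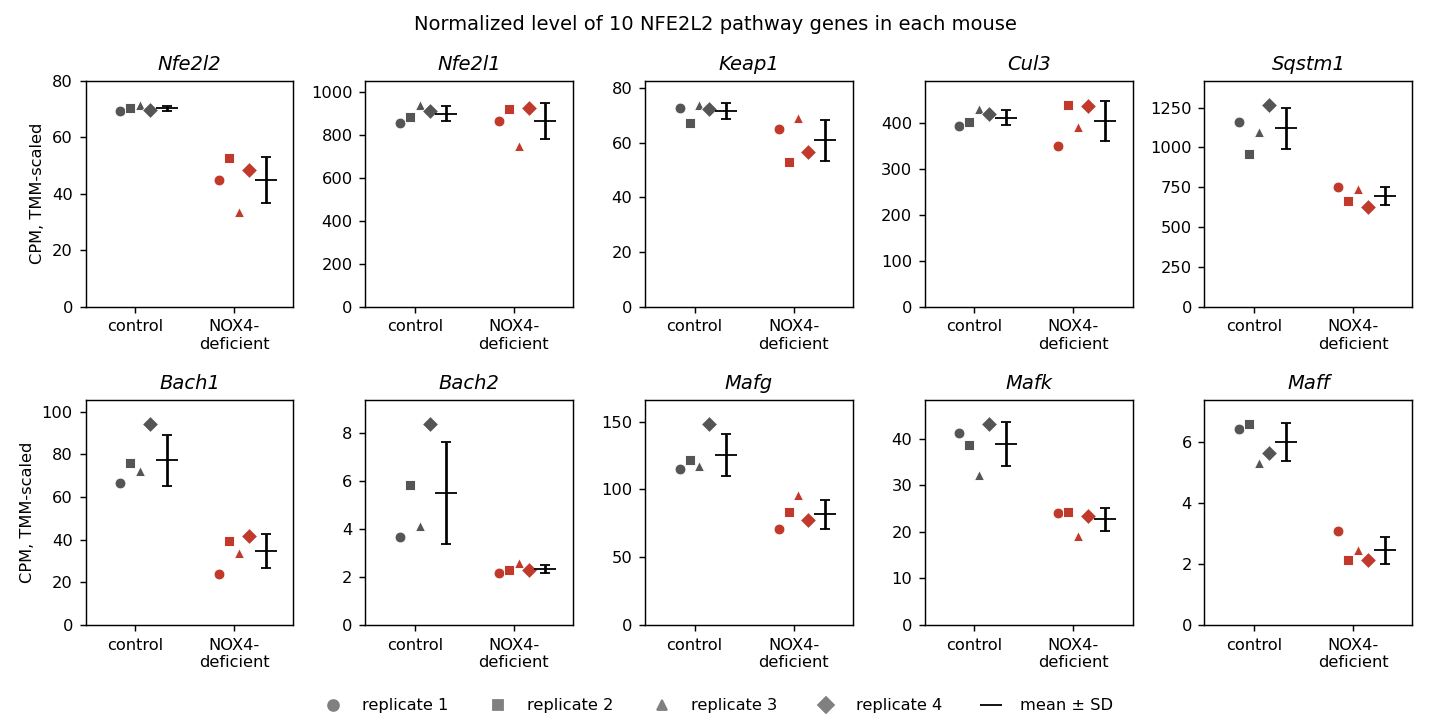
Normalized level (CPM, TMM-scaled, each axis from 0) of the 10 genes in each of 4 control (gray) and 4 NOX4-deficient (red) mice, with symbols for the replicate number and bars for mean ± SD. The groups are apart in *Nfe2l2*, *Sqstm1*, *Bach1*, *Bach2*, *Mafg*, *Mafk* and *Maff*, and overlap in *Nfe2l1*, *Keap1* and *Cul3*.

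*Nfe2l2* was almost the same in all control mice, at 69.5, 70.5, 71.4 and 69.9 CPM in replicates 1 to 4. In NOX4-deficient mice it stood at 44.9, 52.7, 33.5 and 48.4 CPM. The coefficient of variation was 1.19% in control mice, lower than for any other of the 10 genes, and 18.3% in NOX4-deficient mice. The mean fell from 70.3 ± 0.835 to 44.9 ± 8.22 CPM (SD, n = 4 each), to 63.9% of control by the fit, a log2 fold change of -0.65 ± 0.13 (SE, edgeR adjusted p = 0.0112). NOX4-deficient replicate 3 was the lowest of all, and without it the log2 fold change was -0.52 and the gene was still called (edgeR adjusted p = 0.0159).

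*Nfe2l1*, which encodes the related factor that is cut from the endoplasmic reticulum membrane and restores proteasome genes, was not called. It had 858, 887, 940 and 913 CPM in control replicates 1 to 4 and 868, 923, 749 and 925 CPM in NOX4-deficient replicates 1 to 4. Replicate 3 of the NOX4-deficient group, the lowest in *Nfe2l2*, was also the lowest here, and the groups overlapped. The log2 fold change of -0.05 ± 0.10 (SE) had an edgeR adjusted p of 0.804. Its 95% interval ran from -0.28 to 0.17, and its sign turned without NOX4-deficient replicate 3 (0.021).
Within each library, the log2 ratio of *Nfe2l1* to *Nfe2l2* was 3.68 ± 0.044 in control and 4.29 ± 0.145 in NOX4-deficient mice (SD, n = 4), and the groups did not overlap. This ratio does not depend on library size or scaling, and it was not tested.

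*Keap1* encodes the sensor that binds NFE2L2. Its levels were 72.6, 67.4, 73.8 and 72.5 CPM in control replicates 1 to 4 and 65.2, 53.0, 69.1 and 56.5 CPM in NOX4-deficient replicates 1 to 4. NOX4-deficient replicate 3 lay within the control range and the other 3 below it. The log2 fold change was -0.23 ± 0.10 (SE, edgeR adjusted p = 0.208), with a 95% interval from -0.46 to -0.0042, and the gene was called under none of 17 alternatives.
*Cul3*, the scaffold of the ligase, had 395, 403, 432 and 421 CPM in control mice and 350, 440, 393 and 438 CPM in NOX4-deficient mice, in the order of replicates. The NOX4-deficient mice thus held both the lowest and the highest values. The log2 fold change was -0.03 ± 0.10 (SE, edgeR adjusted p = 0.914, 95% interval -0.25 to 0.20), and its sign changed with a single library left out, to 0.011 without control replicate 3 and 0.049 without NOX4-deficient replicate 1.
The log2 ratio of *Nfe2l2* to *Keap1* was -0.02 ± 0.060 in control and -0.45 ± 0.450 in NOX4-deficient mice (SD, n = 4). It overlapped between genotypes, since it ranged from -1.04 to -0.01 among NOX4-deficient mice.

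*Sqstm1* had the highest level per kilobase of the 10 genes. It had 1158, 958, 1099 and 1266 CPM in control replicates 1 to 4 and 749, 665, 738 and 626 CPM in NOX4-deficient replicates 1 to 4. The mean fell from 1120 ± 128 to 694 ± 58.8 CPM (SD, n = 4 each), a log2 fold change of -0.69 ± 0.11 (SE, edgeR adjusted p = 0.00456). SQSTM1 carries ubiquitinated cargo to autophagosomes and sequesters KEAP1, and its gene is itself a known NFE2L2 target. No match to the core was found in its window.

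The repressors fell by more than *Nfe2l2* in size of log2 fold change, a difference that was not tested. *Bach1* was at 66.8, 75.8, 72.1 and 94.4 CPM in control replicates 1 to 4 and at 23.7, 39.3, 33.7 and 41.8 CPM in NOX4-deficient replicates 1 to 4. The highest NOX4-deficient library was well under the lowest control library. Its mean fell from 77.2 ± 11.99 to 34.6 ± 8.04 CPM (SD, n = 4 each), to 44.9% of control by the fit, with a log2 fold change of -1.16 ± 0.17 (SE, edgeR adjusted p = 0.00211). Control replicate 4 was the highest, and without it the log2 fold change was -1.05 (edgeR adjusted p = 0.00575).
*Bach2*, best known from B and T cells, was the lowest of the 10 genes per kilobase, with 61, 113, 77 and 161 counts for control replicates 1 to 4 and 36, 45, 49 and 39 for the NOX4-deficient ones. These are 3.66, 5.82, 4.12 and 8.37 CPM in control and 2.17, 2.28, 2.58 and 2.29 CPM in NOX4-deficient mice. The control mice differed among themselves (coefficient of variation 38.8%) and the NOX4-deficient mice little (7.53%). The log2 fold change was -1.24 ± 0.26 (SE, edgeR adjusted p = 0.0142), and -0.96 without control replicate 4, the highest library (edgeR adjusted p = 0.0319). Of the lymphocyte markers, the T cell gene *Cd3e* was tested and not called, at 0.416 to 3.16 CPM in control and 2.00 to 4.28 CPM in NOX4-deficient libraries. The B and T cell genes *Cd79a*, *Cd79b*, *Ms4a1*, *Cd3d*, *Cd3g*, *Cd4* and *Cd8a* had too few counts to be tested, at no more than 0.312 CPM in any library. Their groups overlapped, with a lower mean in NOX4-deficient muscle for 3 of the 7 (*Cd79a*, *Cd3d* and *Cd4*) and a higher one for 4.
The log2 ratio of *Nfe2l2* to *Bach1* was -0.12 ± 0.217 in control and 0.39 ± 0.398 in NOX4-deficient mice (SD, n = 4). It ranged from -0.43 to 0.058 in control and from -0.01 to 0.92 in NOX4-deficient mice, so that the groups overlapped.

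The small MAF proteins have a DNA-binding leucine zipper but no activation domain, and so depend on the partner for the direction of their effect. *Mafg*, the highest of the 3 per kilobase, was at 115, 122, 117 and 148 CPM in control replicates 1 to 4 and at 70.9, 83.1, 95.9 and 77.2 CPM in NOX4-deficient replicates 1 to 4. All NOX4-deficient libraries lay below all control libraries. The mean fell from 126 ± 15.5 to 81.8 ± 10.6 CPM (SD, n = 4 each), a log2 fold change of -0.62 ± 0.12 (SE, edgeR adjusted p = 0.0104), and -0.53 without control replicate 4 (edgeR adjusted p = 0.0265).
*Mafk* was at 41.4, 38.6, 32.3 and 43.3 CPM in control replicates 1 to 4 and at 24.0, 24.3, 19.1 and 23.3 CPM in NOX4-deficient replicates 1 to 4. Replicate 3 was the lowest within each genotype. The log2 fold change was -0.78 ± 0.12 (SE, edgeR adjusted p = 0.00346).
*Maff*, the small MAF gene induced by stress and cytokines in many cell types, was at 6.41, 6.59, 5.30 and 5.62 CPM in control replicates 1 to 4 and at 3.07, 2.12, 2.47 and 2.11 CPM in NOX4-deficient replicates 1 to 4. These values rest on 99 to 128 counts a library in control and 36 to 51 counts in NOX4-deficient mice. Its log2 fold change of -1.29 ± 0.18 (SE, edgeR adjusted p = 0.00185) corresponds to 40.9% of control. Its 95% interval, from -1.69 to -0.89, overlapped those of *Bach2* (-1.80 to -0.68), *Bach1* (-1.52 to -0.79) and *Mafk* (-1.05 to -0.51). The order of *Maff*, *Bach2* and *Bach1* by size changed with single libraries left out: without control replicate 1 it was *Bach2* (-1.39) before *Maff* (-1.26).

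**Figure D2:**
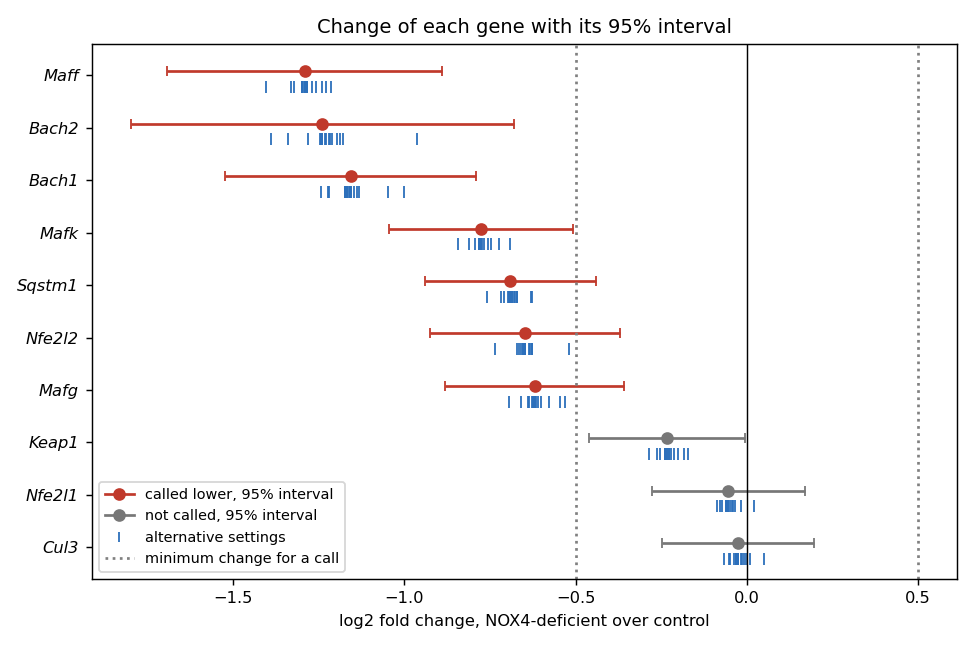
Log2 fold change of each gene, NOX4-deficient over control, with its 95% interval from the edgeR fit (circles and bars, red where called lower) and the values under 17 alternative settings (blue ticks). Dotted lines mark the minimum change of 0.5 for a call. The 7 called genes stay below -0.5 in every setting, and *Keap1*, *Nfe2l1* and *Cul3* lie between -0.5 and 0.5.

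To compare levels between genes, mean CPM was divided by the length of the longest GENCODE M21 transcript in kilobases. In control muscle the order was *Sqstm1* (419 CPM per kb), *Nfe2l1* (193), *Cul3* (87.6), *Nfe2l2* (28.4), *Mafg* (25.5), *Keap1* (19.8), *Bach1* (13.2), *Mafk* (12.6), *Maff* (3.05) and *Bach2* (0.618). The ranges of *Nfe2l2* and *Mafg* overlapped, as did those of *Bach1* and *Mafk*, and the other neighbors were apart. In NOX4-deficient muscle *Sqstm1* (260 CPM per kb), *Nfe2l1* (186) and *Cul3* (86.0) still led. *Nfe2l2* (18.1), *Keap1* (16.9) and *Mafg* (16.6) overlapped there, and *Mafk* (7.33) and *Bach1* (5.91) overlapped in turn.
Summed per kilobase, the 3 small MAF genes came to 40.1, 40.6, 36.9 and 47.0 CPM per kb in control replicates 1 to 4 and to 23.7, 25.8, 26.9 and 24.3 CPM per kb in NOX4-deficient replicates 1 to 4. *Mafg* made up 62.0 ± 2.83% of this sum in control and 65.8 ± 4.87% in NOX4-deficient mice, *Mafk* 30.5 ± 2.15% and 29.2 ± 4.34%, and *Maff* 7.48 ± 1.01% and 4.98 ± 1.0995% (SD, n = 4). The shares of all 3 overlapped between genotypes.

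**Figure D3:**
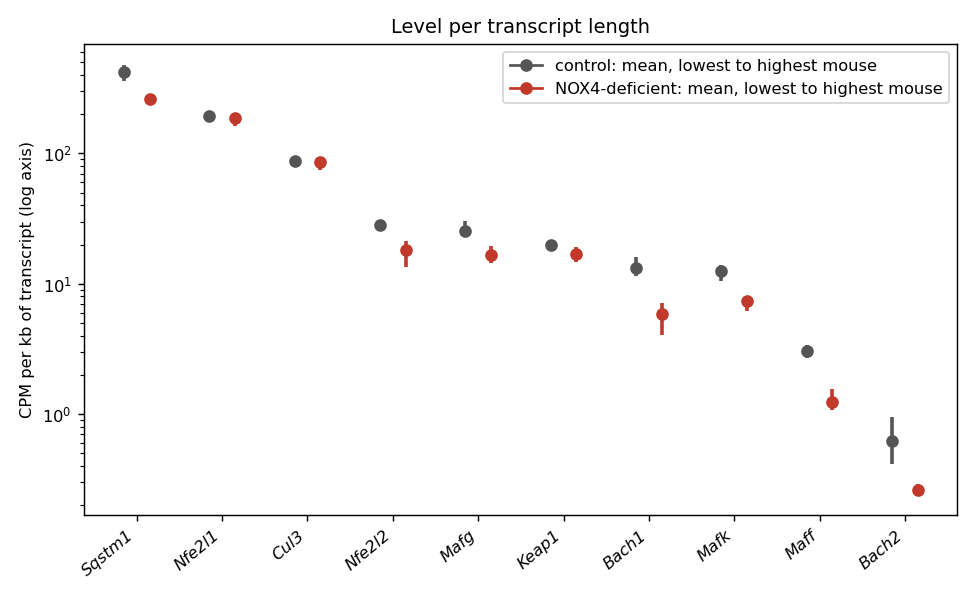
Level of the 10 genes as TMM-scaled CPM per kilobase of transcript on a log axis, ordered by the control mean. Circles are means and lines run from the lowest to the highest of 4 mice. *Sqstm1*, *Nfe2l1* and *Cul3* are the 3 highest in both genotypes and *Bach2* is the lowest.

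**Figure D4:**
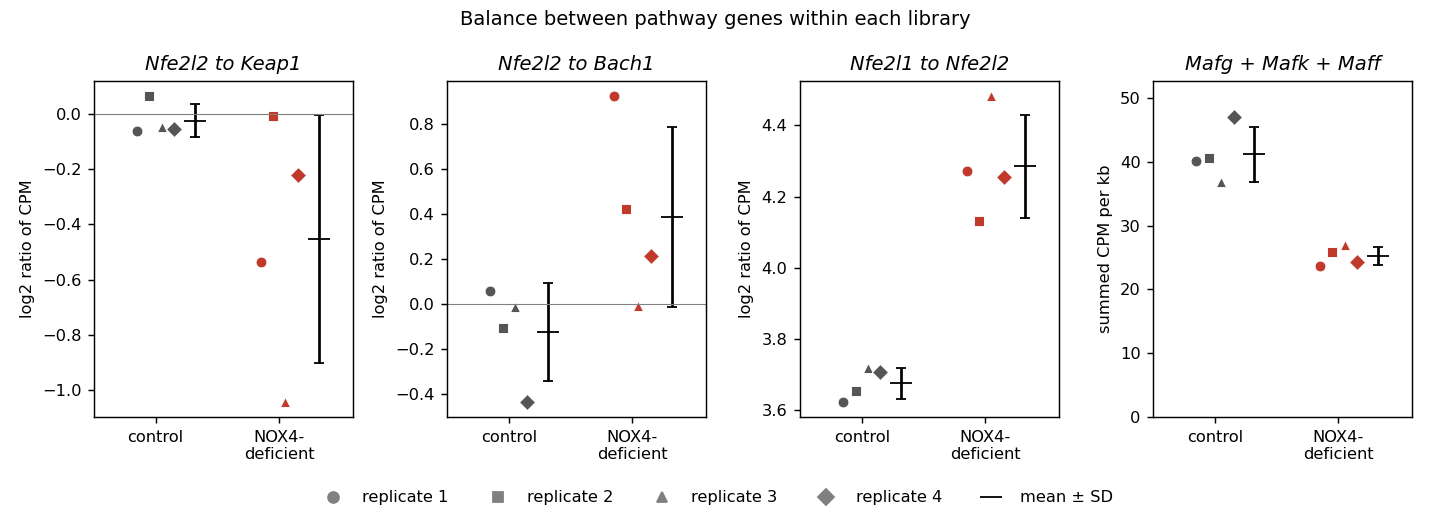
Log2 ratio of CPM of 2 genes within each library (3 panels) and the sum of *Mafg*, *Mafk* and *Maff* in CPM per kb (right panel, axis from 0), for 4 control (gray) and 4 NOX4-deficient (red) mice with mean ± SD. The ratio of *Nfe2l1* to *Nfe2l2* and the small MAF sum separate the genotypes, and the ratios of *Nfe2l2* to *Keap1* and to *Bach1* overlap.

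Around these genes, 73 others of the pathway stood in 5 lists, of which 70 were tested, 8 called lower and none higher. Over all rows tested, the same rule called 3.48% lower and 2.68% higher. The median log2 fold change of the 70 was -0.15. Among the 15 tested genes for the CUL3 ligase machinery and proteins that bind KEAP1 or NFE2L2, 2 were called lower and the median was -0.0016. *Cdkn1a* encodes p21, a cell cycle inhibitor that can shield NFE2L2 from KEAP1. It fell from 97.5 ± 52.0 to 23.8 ± 5.68 CPM (SD, n = 4 each; log2 fold change -2.03, edgeR adjusted p = 0.00841). *Prkcd*, a protein kinase C that can phosphorylate NFE2L2, fell by a log2 fold change of -0.94 (edgeR adjusted p = 0.0122). *Cand1*, which exchanges the substrate receptors of cullin ligases, had 16.9 to 20.8 CPM in control and 11.3 to 15.4 CPM in NOX4-deficient mice. Its log2 fold change of -0.46 ± 0.13 (SE; edgeR adjusted p = 0.0483) was under the minimum size for a call.
None of 18 genes for turnover of NFE2L2 without KEAP1 and its kinases was called, with a median of -0.11. In 4 of them, *Fbxw11*, *Cul1*, *Ddb1* and *Akt2*, every NOX4-deficient mouse lay below every control mouse, beside 8.97% of all rows tested. At an unadjusted p under 0.05, 6 of the 18 passed in edgeR, beside at least 2911 of all 12725 rows tested. R's DESeq2 and pydeseq2 also called none of the 18. Of 12 genes for the processing and turnover of NFE2L1, only *Ddi2* was called lower, or 8.33%, beside 3.48% of all rows tested. *Ddi2*, the protease that cuts NFE2L1 free, fell from 110 ± 10.3 to 75.2 ± 14.0 CPM (SD, n = 4 each; log2 fold change -0.55, edgeR adjusted p = 0.0265).
Of the 16 partners and kinases of SQSTM1, 4 were called lower and none higher, and the median was -0.36. *Gabarapl1*, an ATG8 protein that binds SQSTM1 on autophagosomes, had a log2 fold change of -1.58 ± 0.13 (SE, edgeR adjusted p = 4.41e-05). *Ulk1*, the kinase that starts autophagy and phosphorylates SQSTM1, had -0.86, *Sesn1*, a sestrin that binds SQSTM1, -0.95, and *Optn*, another cargo receptor, -0.63. In 8 of these 16 genes every NOX4-deficient mouse lay below every control mouse, beside 8.97% of all rows tested. Of the 11 tested family factors and coactivators, only *Atf3*, a stress-induced bZIP factor, was called lower (log2 fold change -1.36, edgeR adjusted p = 0.0175), or 9.09%. The CNC relatives *Nfe2* and *Nfe2l3* had too few counts to be tested, at no more than 0.156 CPM in any library.

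Genes driven by these factors were read in 2 lists, beside 3.48% of all rows tested called lower and 2.68% called higher. Of 17 tested NFE2L2 targets, 5 were called lower (*Srxn1*, *Gclm*, *Txnrd1*, *Osgin1* and *Gclc*) and *Gsta4*, a glutathione transferase, was called higher, from 9.08 ± 1.77 to 14.8 ± 1.45 CPM (SD, n = 4 each; log2 fold change 0.70, edgeR adjusted p = 0.0167). The median over the 17 was -0.27, with 13 of them below 0 and 4 above. The rest were not called. *Gsr* had a log2 fold change of -0.56 (edgeR adjusted p = 0.0509) and was called lower by R's DESeq2 and pydeseq2. *Me1* had 0.25 (edgeR adjusted p = 0.126), with every NOX4-deficient mouse above every control mouse. *Nqo1* had -0.14 (edgeR adjusted p = 0.398), and its groups overlapped. For NQO1 the paper reports reduced protein in NOX4-deficient muscle, and protein was not measured here.
The 6 heme and iron genes that BACH1 represses were listed apart, since *Bach1* was also lower. *Hmox1*, heme oxygenase 1, was at 15.7, 9.37, 8.83 and 23.6 CPM in control replicates 1 to 4 and at 3.97, 4.30, 5.05 and 3.28 CPM in NOX4-deficient replicates 1 to 4. It fell by a log2 fold change of -1.79 ± 0.30 (SE, edgeR adjusted p = 0.00618), and the groups did not overlap. *Ftl1*, ferritin light chain, fell by a log2 fold change of -0.72 ± 0.16 (SE, edgeR adjusted p = 0.0203). The other 4 were not called. *Slc40a1*, the iron exporter ferroportin, had a log2 fold change of -0.59 (edgeR adjusted p = 0.0775; called lower by R's DESeq2 and pydeseq2), *Fth1*, ferritin heavy chain, 0.09 (0.688), *Slc48a1*, a heme transporter, -0.03 (0.910), and *Blvrb*, a biliverdin reductase, -0.26 (0.738). No gene of this list was called higher.

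**Figure D5:**
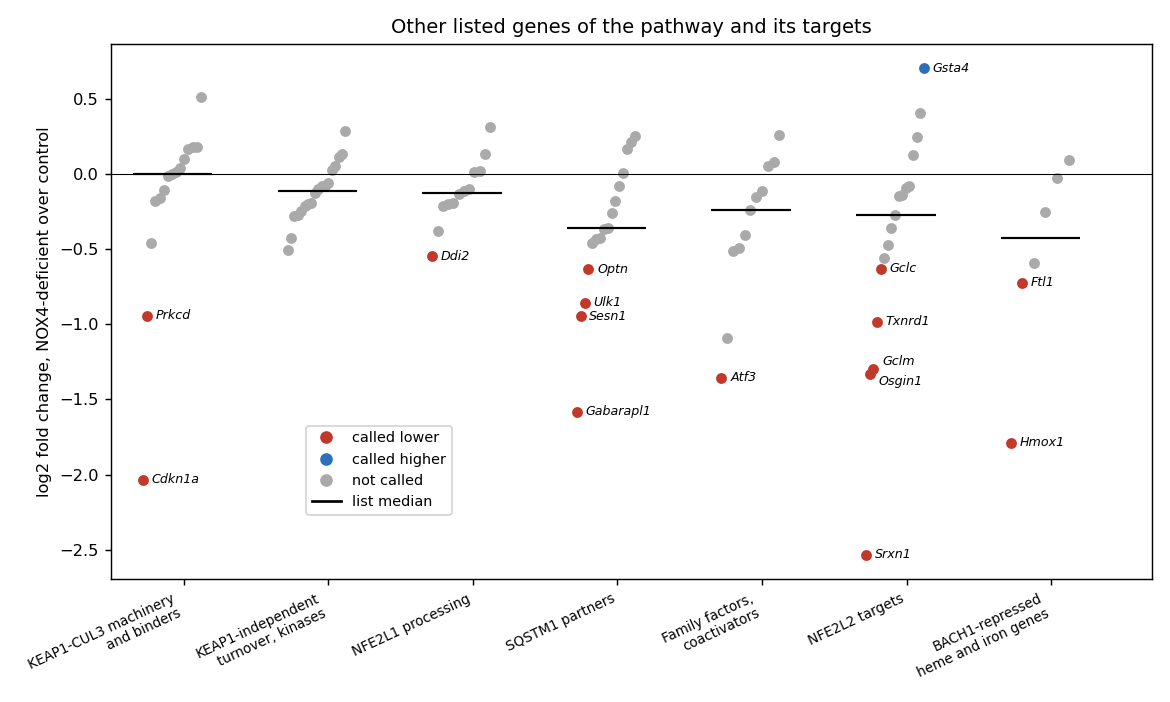
Log2 fold change, NOX4-deficient over control, of each tested gene in 5 lists of pathway genes and 2 lists of target genes (points, sorted within a list). Red points were called lower, blue higher and gray not called, and black lines are list medians. The called genes run from *Srxn1* at -2.53 to *Gsta4* at 0.70.

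Over the 8 libraries, the 5 genes whose log2 CPM followed *Nfe2l2* most closely were *Lrrc2*, *Magt1*, *Asb2*, *Tex10* and *Wipi1*, with Pearson correlations from 0.97 to 0.98. For *Sqstm1* they were *Hspb1*, *Psmc2*, *Ptges3*, *Npm1* and *Pa2g4*, from 0.98 to 0.99. These correlations span both genotypes, and so include the difference between them.

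Other features also differed between the genotypes, and their part in the results above was not tested. The shares over all rows tested were 3.48% called lower and 2.68% called higher. Of 15 clock and fasting-responsive genes, 5 were called lower and 3 higher, among them *Lpin1* (log2 fold change -1.44), *Fbxo32* (-1.62), *Fkbp5* (-1.71), *Per3* (1.84), *Dbp* (2.37) and *Ciart* (1.59). All 9 macrophage and leukocyte markers had negative log2 fold changes, beside 47.7% of all rows tested. Of the 9, *Cd163* was called (-1.29). The sum of the 9 ran from 25.4 to 69.1 CPM in control and from 15.01 to 38.2 CPM in NOX4-deficient libraries. Of 8 immediate early genes, *Zfp36* was called lower (-1.17), and the sums overlapped (219 to 298 and 175 to 365 CPM). Of 6 endothelial markers, *Vwf* was called higher (0.74). The slow fiber, fibroblast and tendon, and adipocyte lists had no called gene, positive medians (0.66, 0.71 and 0.59) and sums that overlapped, from 294 to 640 and 385 to 1155 CPM for the slow fiber genes.
In unstranded libraries, reads of genes that overlap on opposite strands cannot be told apart. In GENCODE M21, *Mrnip* overlaps 17.3% of the exon bases of *Sqstm1* on the other strand but held 179 counts over all libraries, against 133117. *Gm16754* opposite *Keap1* held 54 counts and *Tmem184a* opposite *Mafk* 48.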

How the data were processed

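Total RNA of gastrocnemius was poly(A)-selected and sequenced as unstranded paired-end libraries. The authors deposited raw read counts per gene from the nf-core RNA-seq pipeline, not normalized, with 1 column per mouse. The submitters' processing notes name STAR and GRCm39. The annotation and counter settings were not given in the sources used here. All 8 columns matched a sample by title, and p-values measure the spread between these mice.

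The tests used edgeR 4.0.16 under R 4.3.3: filterByExpr, TMM, estimateDisp, robust glmQLFit and glmQLFTest with genotype as the only term, tested on simulated data. There, the fit called 80% of genes given a log2 fold change of 1 in size and 35% of those given 0.6. The study's methods used pydeseq2, which is an alternative here. Standard errors are the log2 fold change over the square root of F. Alternatives were DESeq2 size factors, library size only, no filter, a minimum of 10 counts per library throughout, non-robust dispersions, DESeq2 1.42.0, pydeseq2 0.5.4, a replicate block, each library left out, no minimum fold change and, added after the data were seen, odd against even replicate number as a covariate. The genes and lists were chosen with earlier results of these data known. Named are the 10 genes, *Nox4*, up to 3 called genes in each direction per list, all BACH1-repressed genes, 5 genes closest to *Nfe2l2* and to *Sqstm1*, and called or leading cell markers. *Nfe2*, *Nfe2l3*, *Optn*, *Osgin1*, *Gclc*, *Nqo1*, the lymphocyte genes and genes of non-overlapping groups were named after their values were seen. Protein sequences were not used here.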

Additional observations from a re-analysis of the deposited data

Results flagged for a closer look

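Over 34 named genes, 68 groups of 4 libraries were searched for a library far from the other 3, by its gap to the nearest library as a share of the group's range, against Dixon's 95% critical value for 4 libraries. A library stood apart in 7 groups, where chance gives about 3.4 (1 in 20), and in no group of the 10 NFE2L2 pathway genes. Control replicate 4 was the highest in *Cdkn1a* (ratio 0.869, 175 CPM), *Lpin1* (0.884, 970 CPM), *Fbxo32* (0.871, 1694 CPM) and *Fkbp5* (0.926, 203 CPM). Control replicate 3 was the highest in *Ciart* (0.951, 9.69 CPM). NOX4-deficient replicate 1 was the lowest of its group in *Nox4* (0.918, 1.75 CPM) and *Gclm* (0.885, 16.9 CPM).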

How the results depend on the processing

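The count of 7 genes called lower and 0 higher was the same under all alternatives tried, and each of the 7 was called under each of its 17 refits. *Keap1*, *Nfe2l1* and *Cul3* were called under none. With each library left out, *Nfe2l1* ranged from -0.0859 to 0.021 (sign turned without NOX4-deficient replicate 3) and *Cul3* from -0.0679 to 0.049 (turned without control replicate 3, 0.011, and without NOX4-deficient replicate 1). The called pathway genes numbered 6 to 9 with each library left out, 9 with DESeq2 or pydeseq2 and 12 without the minimum fold change, against 8. The targets called lower numbered 6 to 9 over all alternatives, against 7. Over all rows, 784 were called. With each library left out the count ranged from 499 (without control replicate 4) to 712, a fit that has fewer samples. *Nox4* was called under none, with log2 fold changes from -0.82 to -0.36 with each library left out. The labels tie same-numbered replicates to no shared litter or day, and the correlations of their deviations from the group means ran from 0.041 to 0.22 over the 4 pairs, so the numbers were not taken as pairs, and 2 of 8 libraries correlated best with their own number. Deviations did follow odd and even numbers across genotypes. All 8 pairs of like parity had positive correlations (0.041 to 0.22), and 7 of 8 pairs of unlike parity had negative ones (down to -0.21). The second principal component (19% of variance) also set odd apart from even numbers in both groups. The labels name no cause, and none was tested. With odd against even number as a covariate, added after the data were seen, 7 of the 10 genes and 962 rows were called. With the replicate block, 7 of the 10 genes, 9 pathway genes and 933 rows were called, and *Nfe2l2* had a log2 fold change of -0.67. Counts under 170 a library limit *Bach2* and *Maff*.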
